A study of Mus musculus with 6 samples.

Results

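A total of 59 genes of the cyclin, cyclin-dependent kinase (CDK), CDK inhibitor, E2F and retinoblastoma families were described in 4T1-Luc2-RFP cells, out of 13912 genes in the table. They were selected by symbol, as single-letter cyclin genes (Ccn), numbered Cdk genes, all Cdkn genes, the E2f genes, Rb1, Rbl1 and Rbl2, with no threshold on a measured value, though the families were picked with earlier results of these data known. The 59 comprised 8 genes of G1 cyclins and their kinases, 5 of S, G2 and M cyclins with Cdk1, 14 transcriptional and 12 atypical cyclins and CDKs, and 6 inhibitors of the CIP/KIP and INK4 families. The others were 3 further Cdkn symbols, 8 E2Fs and 3 pocket proteins. The family genes Ccna1, Ccnb3, Ccnp, Ccnq, Cdk3, Cdk15 and Cdkn2a were not analysed here.

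RNA was sequenced from 2 groups of 3 libraries. The tumour group was 4T1-Luc2-RFP cells isolated by fluorescence-activated sorting from tumours of the mammary gland grown by intraductal injection (MIND), and the culture group was the same cells grown in culture and never injected. 4T1 is a mammary carcinoma line of the BALB/c strain, and the labelled cells of both groups carry a luciferase and a red fluorescent protein. The age of the mice, any pooling of animals and the sort gate were not given in the sources used here, and only the tumour group is labelled as sorted. The labels of the tumour libraries all include the word Right. Separate mice or cultures behind the libraries of a group are not stated, so the p-values rest on variation among 6 libraries that may be technical. The design sets sorted cells grown in the gland against cells grown in a dish that are not labelled as sorted. Growth site, sorting and any host cells sorted along cannot be told apart in it.

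Cyclins activate CDKs, and the pairs act in order through the cell cycle. Cyclin D with CDK4 or CDK6, and then cyclin E with CDK2, phosphorylate the pocket proteins RB, p107 and p130, which releases E2F transcription factors and starts S phase, while cyclin A and cyclin B with CDK1 carry the cell through G2 and mitosis. The CIP/KIP and INK4 proteins restrain these kinases, and a separate set of cyclins and CDKs acts on RNA polymerase II. In mammary epithelium the cyclin D1 and CDK4 pair is known for its role in proliferation and in carcinoma.

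The libraries held 35448588 to 41469090 reads in the table. Markers of host cell types were high in the sorted libraries. All 15 macrophage markers tested were higher there, and their summed level was 7308 to 10862 CPM in tumour libraries and 27.9 to 38.7 CPM in culture libraries, with Ms4a7 at 0 reads in culture. All 12 fibroblast markers were higher as well, with sums of 7260 to 9255 CPM in tumour libraries and 24.0 to 51.8 CPM in culture libraries and Dpt at 0 reads in culture. All 9 neutrophil markers tested of 10 listed were higher and summed to 1438 to 4593 CPM in tumour libraries, lowest in library 2, and 85.6 to 101 CPM in culture libraries, with Mmp8 and Retnlg at 0 reads in culture. All 10 endothelial markers were higher, with sums of 210 to 257 CPM in tumour libraries and 33.3 to 53.1 CPM in culture libraries, and Emcn and Cldn5 at 0 reads in culture. Of 10 lymphocyte markers 3 were tested, at sums of 4.55 to 4.88 CPM in tumour libraries and 0 to 0.0221 CPM in culture libraries, with Cd4 and Cd8a at 0 reads in culture. The smallest total in the table is 61 reads over the 6 libraries. Markers with fewer than 61 culture reads are in the table only with tumour reads. This favours a higher level in tumour libraries, and fixes that direction where culture reads are few. Such markers were 11 of the 15 macrophage, 10 of the 12 fibroblast, 8 of the 9 neutrophil, 8 of the 10 endothelial and all 3 lymphocyte markers. Epcam and Krt18, epithelial markers named outside the planned counts of their list, averaged 6.82 and 10.04 log2 CPM in tumour libraries and 6.64 and 9.77 in culture libraries. They do not stand for that list, in which more markers fell than rose. Of 26 epithelial markers tested of 27 listed, 3 were higher, 13 lower and 10 not called, with a median log2 change of -0.69. The median of this list was 4.06 to 4.41 log2 CPM in tumour libraries and 5.34 to 5.73 in culture libraries, while its summed level was 3276 to 3821 CPM in tumour libraries and 3781 to 4470 CPM in culture libraries. In bulk RNA, fewer cells of a type and less RNA per cell cannot be told apart, and the part of these cell types in the results below was not tested.

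Of the 59 genes, 11 rose and 14 fell in the tumour libraries (limma on the deposited log2 values, Benjamini-Hochberg adjusted p under 0.05 over all 13912 genes). Over all genes 48.2% were called, 29.5% higher and 18.8% lower, so the share called among the 59, 42.4%, was near the background. The groups did not overlap for 31 of the 59, with 13 higher and 18 lower, while they did not overlap for 59.8% of all genes, 34.6% higher and 25.2% lower. The median log2 change was -0.14 for the 59 and 0.08 for all genes. Among the genes that fell were Ccnd2, Cdk6, Ccna2, Ccnb1, Cdk1, E2f3, E2f4, E2f7, Rbl1 and Cdk8. Among those that rose were Cdkn1a, the cyclins L1, L2, G1, G2, I and O, Cdk14 and Rbl2, with cyclin O at few culture reads. The other 2 of the 11, Cdkn1c and Cdkn2b, are in the table only with tumour reads, so their direction was fixed.

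These counts depended on how the libraries were scaled to each other. As deposited, with trimmed-mean scaling, 11 rose and 14 fell. With each library centred on its median, which moved the median change of all genes to -0.14, 11 rose and 20 fell. After quantile normalization (all-gene median -0.32) 9 rose and 23 fell. Scaled to the summed CPM of the epithelial list (all-gene median 0.24), an alternative chosen after seeing the data, 13 rose and 11 fell. Scaled to the median of the epithelial list (all-gene median 1.36) 44 rose and 0 fell, and 77.9% of all genes were then called higher and 1.06% lower. Changes given below are those under trimmed-mean scaling unless another is named, and under the last scaling none of the 14 was called lower. Leaving out tumour library 1 left 9 that fell, and leaving out tumour library 3 left 8.

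**Figure D1:**
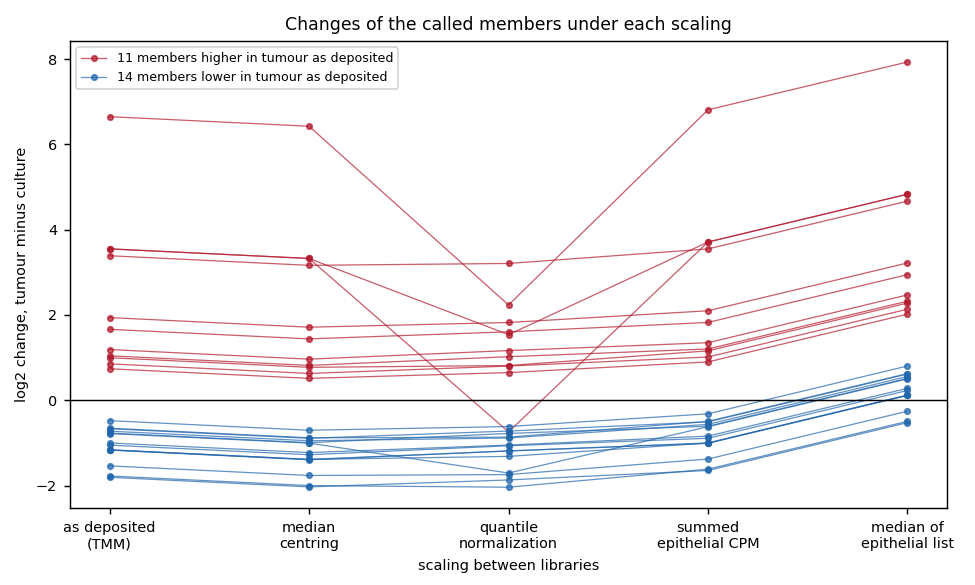
Log2 change (tumour minus culture, y axis) of the 25 called genes under 5 scalings between libraries (x axis), with 1 line per gene, in red for the 11 that were higher and in blue for the 14 that were lower as deposited. The blue lines lie below 0 under the first 4 scalings, and 11 of the 14 lie above 0 when libraries are scaled to the median of the epithelial list; 1 red line, Cdkn1c, falls to -0.74 after quantile normalization.

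**Figure D2:**
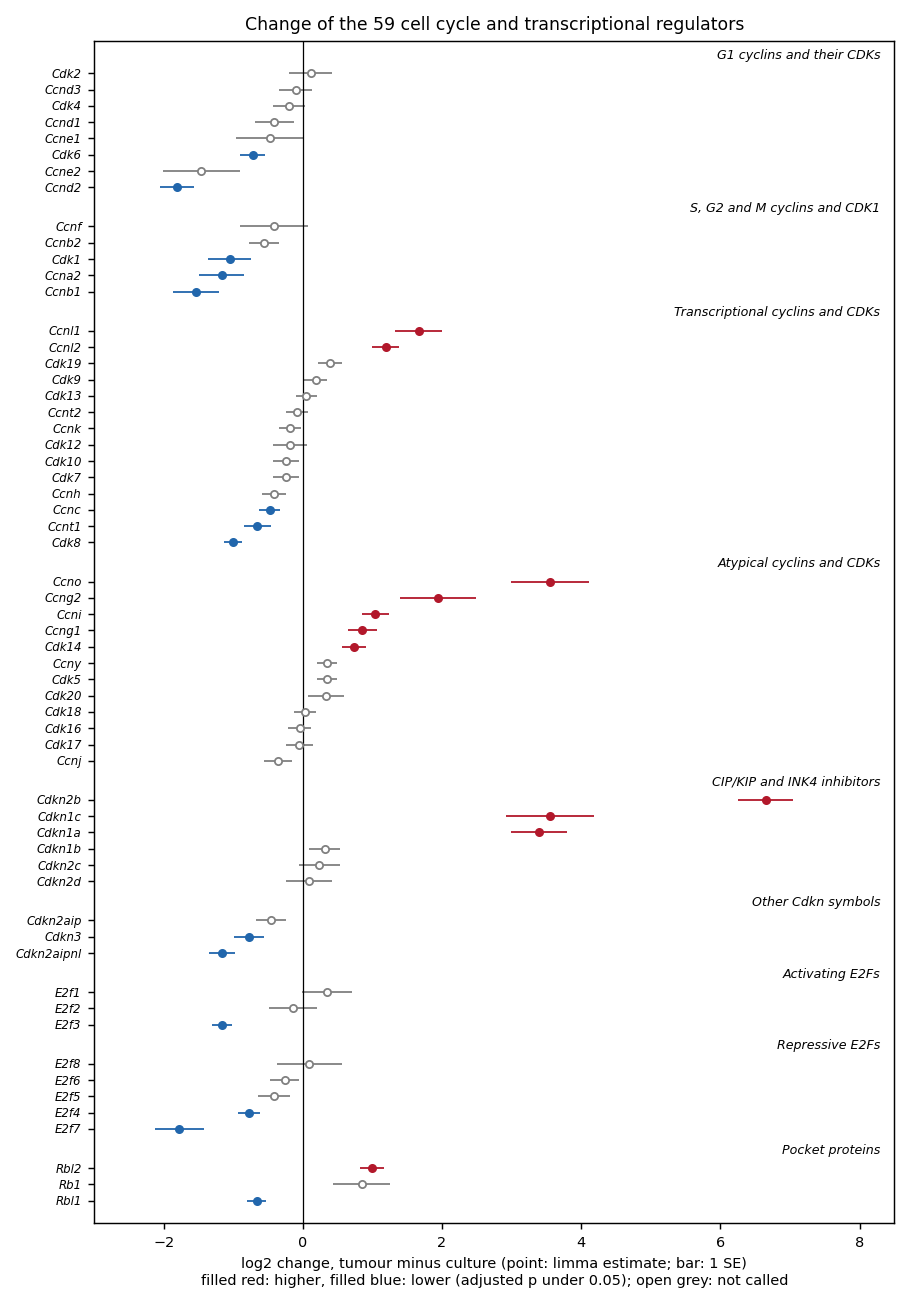
Log2 change (tumour minus culture, x axis) of each of the 59 genes, grouped by role down the page, with 1 SE. Filled red points mark the 11 that were higher, filled blue points the 14 that were lower, and open grey points the 34 that were not called; the changes run from -1.81 for Ccnd2 to 6.65 for Cdkn2b, a fitted value that rests on 0 culture reads.

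Among the G1 genes, cyclin D2 and CDK6 fell while cyclin D1 and CDK4 did not pass the test. Ccnd2, on chromosome 6 from 127125162 to 127152193 of GRCm38, stood at 6.39, 6.33 and 5.71 log2 CPM in tumour libraries 1, 2 and 3, against 8.15, 8.12 and 7.57 in culture libraries 1, 2 and 3. The groups did not overlap, and the log2 change was -1.81 (SE 0.24, limma adjusted p = 0.000576), a level 3.50-fold higher in culture. Its fall was -0.52 and was not called with libraries scaled to the median of the epithelial list. Ccnd1, the main D-type cyclin of mammary epithelium, stood at 9.18, 9.53 and 9.07 log2 CPM in tumour libraries, against 9.21, 9.60 and 10.21 in culture libraries. The groups overlapped, with culture library 3 the highest, and the 95% interval of the log2 change ran from -1.06 to 0.23. About 23.4% of its exon length overlaps exons of LTO1 on the opposite strand, as 19.7% of that of Cdk4 does with Tspan31, 17.4% of that of Ccne2 with Ints8 and 12.5% of that of Ccna2 with Exosc9, and the strand setting of the counting was not given. Per kilobase of exon, Ccnd1 was the most abundant cyclin in both groups, with a mean of 7.03 log2 CPM per kb in tumour libraries and 7.44 in culture libraries, while Ccnd2 had 2.91 in tumour libraries and 4.71 in culture libraries. Ccnd3, the third D-type cyclin, stood at 5.44, 5.43 and 5.05 log2 CPM in tumour libraries, against 4.96, 5.54 and 5.73 in culture libraries, with overlapping groups. It was not called, at -0.10 (SE 0.23, limma adjusted p = 0.738).

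Cdk6, the kinase partner of D-type cyclins, stood at 4.78, 4.98 and 4.83 log2 CPM in tumour libraries, against 5.74, 5.74 and 5.30 in culture libraries. All 3 tumour libraries were below the culture libraries, with a change of -0.72 (SE 0.18, limma adjusted p = 0.0118). Its call was lost without tumour library 1 (limma adjusted p = 0.0569), without tumour library 3 (0.0544) and with scaling to the summed epithelial CPM (0.073), and its change was 0.56 when scaled to the epithelial median. Cdk4, which shares these partners, stood at 8.09, 8.33 and 8.20 log2 CPM in tumour libraries, against 8.14, 8.19 and 8.89 in culture libraries. The groups overlapped, and the 95% interval of its log2 change was -0.72 to 0.32. Cdk4 was also the more abundant of the pair per kilobase of exon, with means of 6.51 log2 CPM per kb in tumour libraries and 6.71 in culture libraries, while Cdk6 had 1.06 in tumour libraries and 1.79 in culture libraries.

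The E-type cyclins, which drive entry into S phase, varied widely in culture. Ccne1 stood at 3.43, 3.51 and 3.20 log2 CPM in tumour libraries, against 2.67, 4.31 and 4.59 in culture libraries. Ccne2 stood at 2.37, 2.64 and 2.30 log2 CPM in tumour libraries, against 2.55, 4.24 and 4.89 in culture libraries. Culture libraries 2 and 3 lay above every tumour library for both genes, and culture library 1 lay below them for Ccne1 and among them for Ccne2. Neither was called, with log2 changes of -0.48 (SE 0.48, limma adjusted p = 0.44) for Ccne1 and -1.46 (SE 0.55, limma adjusted p = 0.0601) for Ccne2. Without culture library 1 both were called lower, Ccne1 at -1.07 (limma adjusted p = 0.00825) and Ccne2 at -2.13 (limma adjusted p = 0.00141). Quantile normalization also called both, at -1.15 (limma adjusted p = 0.0433) for Ccne1 and -2.56 (limma adjusted p = 0.00231) for Ccne2, and median centring called Ccne2 (-1.68, limma adjusted p = 0.0351). Scaled to the epithelial median, Ccne1 had 0.80 and was not called. Cdk2, the kinase of cyclin E, stood at 5.78, 5.83 and 5.87 log2 CPM in tumour libraries, against 5.03, 5.76 and 6.36 in culture libraries, with the tumour libraries close together between the culture libraries, and a 95% interval of the log2 change of -0.61 to 0.83.

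Of the 5 genes of S, G2 and M phases, Ccna2, Ccnb1 and Cdk1 fell and Ccnb2 and Ccnf were not called, with a median log2 change of -1.05 as deposited and 0.23 when scaled to the epithelial median. As deposited, 18.8% of all genes were called lower, and the all-gene median was 1.36 under the epithelial median scaling. Ccnb1, the mitotic cyclin B1, on chromosome 13 from 100778650 to 100786570, stood at 4.18, 4.72 and 4.41 log2 CPM in tumour libraries 1, 2 and 3, against 5.27, 6.10 and 6.56 in culture libraries 1, 2 and 3. No tumour library reached the lowest culture library. The log2 change was -1.54 (SE 0.33, limma adjusted p = 0.00608), and the level was 2.90-fold higher in culture. Cdk1, the mitotic kinase, on chromosome 10 from 69335146 to 69352938, stood at 6.36, 6.85 and 6.499 log2 CPM in tumour libraries, against 7.12, 7.42 and 8.33 in culture libraries. Again the groups did not overlap, and culture library 3 was the highest, with a change of -1.05 (SE 0.31, limma adjusted p = 0.0255). Ccna2, cyclin A2 of S and G2 phases, stood at 6.41, 6.89 and 6.47 log2 CPM in tumour libraries, against 7.11, 7.74 and 8.43 in culture libraries. Its log2 change was -1.17 (SE 0.32, limma adjusted p = 0.0193), with no overlap between the groups.

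The calls for Ccna2 and Cdk1 depended on tumour libraries 1 and 3. Without tumour library 1 the limma adjusted p was 0.0665 for Ccna2 and 0.0867 for Cdk1, and without tumour library 3 it was 0.0671 for Ccna2 and 0.0799 for Cdk1, at log2 changes from -1.11 to -0.95. With libraries scaled to the median of the epithelial list, the changes of Ccna2 and Cdk1 were 0.11 and 0.23 and that of Ccnb1 was -0.26, none of them called. Tumour library 2 was the highest of its group for Ccna2, Ccnb1 and Cdk1. It also had the lowest sums of neutrophil, macrophage, fibroblast and endothelial markers, whose part in these falls was not tested. Ccnb2, the other B-type cyclin, stood at 5.34, 5.79 and 5.59 log2 CPM in tumour libraries, against 6.03, 5.85 and 6.52 in culture libraries. The groups did not overlap, but the difference was not called, at -0.56 (SE 0.22, limma adjusted p = 0.0649). It was called lower without culture library 2 (-0.70, limma adjusted p = 0.0387) and after median centring (-0.79, limma adjusted p = 0.0203) or quantile normalization (-0.62, limma adjusted p = 0.0274), and higher when scaled to the epithelial median (0.72, limma adjusted p = 0.0351). Ccnf, the F-box cyclin, stood at 5.40, 5.09 and 5.35 log2 CPM in tumour libraries, against 4.47, 5.96 and 6.65 in culture libraries, with culture library 1 below and the other culture libraries above every tumour library. It was not called, but was called lower without culture library 1 (-1.03, limma adjusted p = 0.016).

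**Figure D3:**
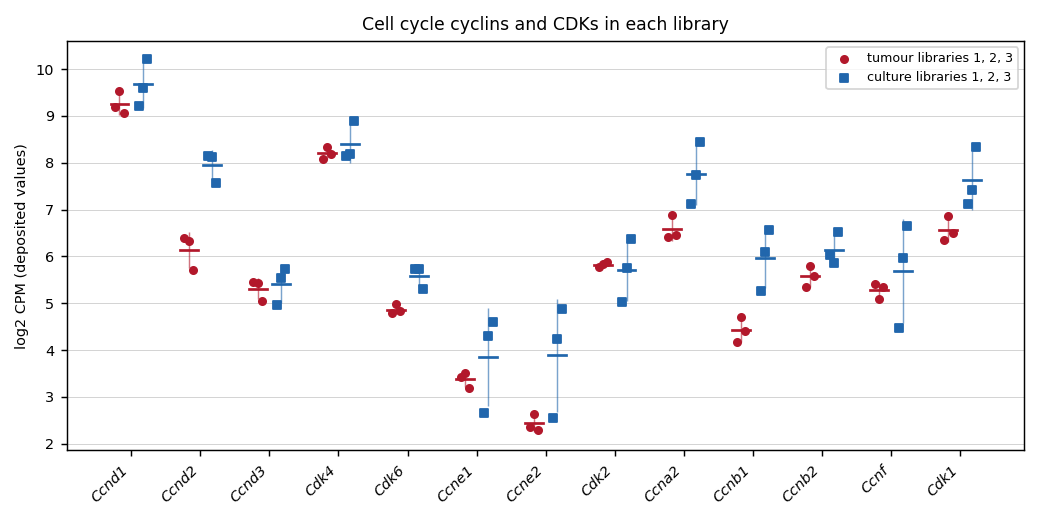
Deposited log2 CPM (y axis) of 13 cell cycle cyclins and CDKs (x axis) in the 3 tumour libraries (red circles) and the 3 culture libraries (blue squares), with the group mean as a bar and 1 SD as a line. The groups are apart for Ccnd2, Cdk6, Ccna2, Ccnb1, Ccnb2 and Cdk1 and overlap for the others, and the culture libraries spread more than the tumour libraries for Ccne1, Ccne2 and Ccnf.

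The promoters of the mitotic genes that fell are shown because such genes are known to share CCAAT boxes and the cell cycle gene homology region (CHR). RefSeq windows of 300 bases on GRCm38.p6, from 250 bases before to 50 after an annotated start, were found for 46 of the 59 genes. Those of Ccnb1 and Cdk1 are printed 5′ to 3′ on the gene's strand. Capitals mark the CCAAT box (CCAAT), the CHR (TTTGAA or TTCGAA) and E2F letters on either strand. The E2F letters searched were TTCCCGC and its variants TTCGCGC as well as TTGCCGC and also TTGGCGC.
Ccnb1 (chr13:100786437-100786736, minus strand): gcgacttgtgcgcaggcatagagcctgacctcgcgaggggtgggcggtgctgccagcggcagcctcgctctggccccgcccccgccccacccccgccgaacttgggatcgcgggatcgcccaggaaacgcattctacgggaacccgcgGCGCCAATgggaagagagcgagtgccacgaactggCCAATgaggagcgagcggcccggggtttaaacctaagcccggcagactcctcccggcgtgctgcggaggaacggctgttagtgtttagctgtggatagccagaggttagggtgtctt
Cdk1 (chr10:69352863-69353162, minus strand): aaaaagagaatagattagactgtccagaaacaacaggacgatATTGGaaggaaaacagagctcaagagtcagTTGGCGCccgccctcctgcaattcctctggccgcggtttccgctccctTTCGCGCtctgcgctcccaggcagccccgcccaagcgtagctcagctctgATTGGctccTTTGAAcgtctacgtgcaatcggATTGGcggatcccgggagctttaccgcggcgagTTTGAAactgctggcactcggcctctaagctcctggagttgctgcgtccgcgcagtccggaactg
The Ccnb1 window held 2 CCAAT boxes and 1 E2F match, which overlapped the first CCAAT box, and 0 CHR matches. The Cdk1 window held 3 CCAAT boxes, all on the opposite strand, 2 CHR matches and 2 E2F matches. Over all 32851 windows, 37.4% held a CCAAT box, 19.2% a CHR and 9.57% E2F letters. Of the 11 genes that fell and had a window, 7 held a CCAAT box, 3 a CHR and 5 E2F letters. Of the 10 that rose, 2 held a CCAAT box, 3 a CHR and 1 E2F letters, and of the 25 not called these numbers were 16, 5 and 5. A gene with several windows was counted where any of them held the letters, while the shares over all are of single windows. A match describes the letters only and does not show that a factor binds there.

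Among the CDK inhibitors, p21 rose, p27, p18 and p19 were not called, and p57 and p15 were called higher at few reads with a direction that the table's minimum fixed. Cdkn1a, which encodes p21 and lies on chromosome 17 from 29090976 to 29100727, stood at 8.61, 7.66 and 8.27 log2 CPM in tumour libraries 1, 2 and 3, against 4.23, 5.67 and 4.47 in culture libraries 1, 2 and 3. The lowest tumour library lay above the highest culture library, and the log2 change was 3.39 (SE 0.40, limma adjusted p = 0.000287), a 10.5-fold higher level. In linear terms it averaged 300.4 ± 94.2 CPM in tumour libraries and 30.7 ± 17.7 CPM in culture libraries (SD, n = 3 each). Its change stayed between 3.16 and 4.67 under the 4 other scalings and was called under each. Tumour library 2 had the lowest Cdkn1a of the tumour libraries and also the lowest sums of neutrophil (1438 CPM, with 4593 and 2418 CPM in tumour libraries 1 and 3), macrophage (7308, with 10303 and 10862 CPM), fibroblast (7260, with 7934 and 9255 CPM) and endothelial markers (210, with 257 and 240 CPM). Their part in the result was not tested.

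RefSeq lists 2 starts of Cdkn1a, and the window of the upstream start is shown because p53 is known to induce p21 and the window holds a match to the p53 response element. Capitals mark that match, found by its consensus with the core letters exact, at most 1 other mismatch and no spacer, a search added after the values were seen.
Cdkn1a (chr17:29090729-29091028, plus strand): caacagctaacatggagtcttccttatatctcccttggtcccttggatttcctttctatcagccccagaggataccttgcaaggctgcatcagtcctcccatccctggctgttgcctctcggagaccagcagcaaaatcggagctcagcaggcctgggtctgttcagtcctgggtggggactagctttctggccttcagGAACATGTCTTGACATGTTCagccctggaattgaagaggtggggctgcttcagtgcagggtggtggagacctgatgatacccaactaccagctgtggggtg
The match begins 51 bases before the start. By the same search it was found in 18 of the 32851 windows (0.0548%) and in no other window of the 59 genes. No CCAAT box, CHR or E2F letters were found in this window. The match describes letters only and does not show that p53 binds there. A part of p53 in the rise of Cdkn1a was not tested.

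Cdkn2b, which encodes the INK4 inhibitor p15, had 45, 62 and 37 reads in tumour libraries 1, 2 and 3, against 0 reads in every culture library. Set against a floor of 3 reads over the culture group, tumour libraries held at least a 51.0-fold higher level, at 1.25 CPM there. It is in the table through its tumour reads alone, so its direction was fixed by the filter on low reads. Its window is shown as the promoter of the largest rise among the 59, with the single CHR match, on the opposite strand, in capitals.
Cdkn2b (chr4:89310983-89311282, minus strand): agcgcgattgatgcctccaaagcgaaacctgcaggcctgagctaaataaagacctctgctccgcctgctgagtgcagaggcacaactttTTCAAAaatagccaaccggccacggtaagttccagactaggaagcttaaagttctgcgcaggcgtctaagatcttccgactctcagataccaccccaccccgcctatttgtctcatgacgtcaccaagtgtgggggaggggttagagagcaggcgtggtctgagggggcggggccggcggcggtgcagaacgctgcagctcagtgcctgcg
Cdkn1c, which encodes p57, had 22, 15 and 65 reads in tumour libraries, against 2, 4 and 1 reads in culture libraries. The ratio of pooled CPM was 15.5 (95% counting interval 7.25 to 39.5), and the limma estimate was 3.55 (SE 0.64, limma adjusted p = 0.00265). With 7 culture reads, it too is in the table only with tumour reads. After quantile normalization its change was -0.74 (limma adjusted p = 0.416), so its direction depended on that choice. With genes kept only at a group mean of at least 1 log2 CPM, which left out Cdkn1c and Cdkn2b, 57 of the 59 remained, and 9 rose and 14 fell.

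The other inhibitors were well expressed in both groups. Cdkn1b, which encodes p27, stood at 6.60, 6.51 and 6.55 log2 CPM in tumour libraries, against 6.15, 6.71 and 5.86 in culture libraries. The tumour libraries lay between the culture libraries, and the 95% interval of the log2 change was -0.20 to 0.83. Cdkn2c, which encodes p18, stood at 6.11, 6.44 and 6.16 log2 CPM in tumour libraries, against 5.43, 5.92 and 6.64 in culture libraries, with an interval of -0.45 to 0.92. For Cdkn2d, which encodes p19, values were 4.41, 4.20 and 4.24 log2 CPM in tumour libraries, against 3.66, 4.96 and 3.95 in culture libraries, with an interval of -0.68 to 0.86. All 3 overlapped between groups and were not called as deposited, but without culture library 2 Cdkn1b was called higher (0.55, limma adjusted p = 0.0249), without culture library 3 Cdkn2c was (0.56, limma adjusted p = 0.0397), and all 6 inhibitors were called higher when libraries were scaled to the epithelial median. Under that scaling 77.9% of all genes were called higher.

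The remaining Cdkn symbols are not kinase inhibitors of these families. Cdkn3, a phosphatase that acts on CDKs and is expressed in dividing cells, stood at 2.67, 2.97 and 2.90 log2 CPM in tumour libraries, against 3.44, 3.68 and 3.76 in culture libraries. It fell by 0.78 (SE 0.21, limma adjusted p = 0.019). Its call was lost without tumour library 1 or 3, and its change was 0.50 when scaled to the epithelial median. Cdkn2aipnl, a relative of the ARF-binding protein gene Cdkn2aip, fell with -1.16 (SE 0.19, limma adjusted p = 0.00162) and had 0.12 under that scaling. Cdkn2aip itself was not called, at -0.46 (SE 0.21, limma adjusted p = 0.113), but was called lower without culture library 3 (-0.66, limma adjusted p = 0.008).

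Of the pocket proteins, p130 rose, p107 fell and RB was not called. Rbl2, which encodes p130, the pocket protein of quiescent cells, stood at 5.41, 5.45 and 5.49 log2 CPM in tumour libraries 1, 2 and 3, against 4.45, 4.67 and 4.23 in culture libraries 1, 2 and 3. The groups did not overlap, and the log2 change was 0.997 (SE 0.17, limma adjusted p = 0.0021). Rbl1, which encodes p107, known for its expression in cycling cells, stood at 5.62, 5.79 and 5.56 log2 CPM in tumour libraries, against 6.39, 6.28 and 6.29 in culture libraries. It was lower in every tumour library, with a change of -0.67 (SE 0.14, limma adjusted p = 0.00532), but was called higher when libraries were scaled to the epithelial median (0.61, limma adjusted p = 0.0283). Rb1 stood at 5.91, 5.37 and 5.88 log2 CPM in tumour libraries, against 4.96, 5.73 and 3.96 in culture libraries, with culture library 3 the lowest, and its change was 0.84 (SE 0.42, limma adjusted p = 0.132). Rb1 was called higher without culture library 2 (1.26, limma adjusted p = 0.0219), with library weights (0.78, limma adjusted p = 0.0289) and with scaling to the epithelial median (2.12, limma adjusted p = 0.000518). A share of 20.97% of the exon length of Rbl2 overlaps exons of Aktip and Gm45464 on the opposite strand. For Rb1 the share is 14.9%, with Lpar6 and Rcbtb2. Reads of such genes cannot be told apart there without strand. The same holds, among others, for Cdkn1c and Gm44732 (30.7%), Cdkn2aip and E030037K01Rik (17%), and E2f8 and Gm2788 (11.2%).

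Of the 8 E2Fs, E2f3, E2f4 and E2f7 fell and the other 5 were not called, beside 18.8% lower and 29.5% higher over all genes. E2f3, an activator, stood at 4.75, 4.87 and 4.72 log2 CPM in tumour libraries 1, 2 and 3, against 5.86, 5.91 and 6.05 in culture libraries 1, 2 and 3. The libraries of each group were close together and far apart between groups, and the change was -1.16 (SE 0.14, limma adjusted p = 0.000374). E2f1, the best known activator, stood at 5.26, 5.44 and 5.27 log2 CPM in tumour libraries, against 4.40, 4.65 and 5.88 in culture libraries, and its groups overlapped, with culture library 3 above and the other culture libraries below every tumour library. E2f2 stood at 4.09, 3.93 and 4.07 log2 CPM in tumour libraries, against 3.33, 4.68 and 4.51 in culture libraries, also overlapping. The log2 changes were 0.35 (SE 0.36, limma adjusted p = 0.464) for E2f1 and -0.14 (SE 0.35, limma adjusted p = 0.763) for E2f2. Without culture library 3, E2f1 was called higher (0.80, limma adjusted p = 0.00378), as it was with library weights (0.64, limma adjusted p = 0.0275), and without culture library 1 E2f2 was called lower (-0.57, limma adjusted p = 0.0446).

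E2f4, the main E2F bound to p107 and p130, stood at 6.69, 6.96 and 6.64 log2 CPM in tumour libraries, against 7.64, 7.34 and 7.62 in culture libraries, with a change of -0.77 (SE 0.16, limma adjusted p = 0.00516). E2f7, an atypical repressor that acts without a DP partner, stood at 4.17, 4.49 and 3.82 log2 CPM in tumour libraries, against 5.25, 5.95 and 6.61 in culture libraries. It had the largest fall of the 8, -1.78 (SE 0.35, limma adjusted p = 0.004), with no overlap between groups. E2f8, its closest relative, stood at 5.46, 5.73 and 5.51 log2 CPM in tumour libraries, against 4.69, 5.06 and 6.69 in culture libraries, overlapping between groups, with 0.09 (SE 0.47, limma adjusted p = 0.889). Without culture library 3 it was called higher (0.70, limma adjusted p = 0.0117). E2f5 stood at 4.47, 4.36 and 4.55 log2 CPM in tumour libraries, against 5.35, 4.55 and 4.72 in culture libraries, with groups apart by less than the rounding of these values and no call (-0.42). It was called lower after median centring (-0.64, limma adjusted p = 0.0463), quantile normalization (-0.67, limma adjusted p = 0.0278) or library weights (-0.55, limma adjusted p = 0.0407). Scaled to the epithelial median, E2f5 was called higher (0.86, limma adjusted p = 0.0306). E2f6, a repressor that acts without pocket proteins, stood at 4.28, 4.55 and 4.13 log2 CPM in tumour libraries, against 4.59, 4.34 and 4.83 in culture libraries, overlapping and not called (-0.26). Quantile normalization called E2f6 lower (-0.57, limma adjusted p = 0.047) and scaling to the epithelial median called it higher (1.02, limma adjusted p = 0.00626). Scaled to the epithelial median, E2f3 and E2f4 had changes of 0.12 and 0.51 and E2f7 one of -0.49, none of them called. E2f1 (1.63, limma adjusted p = 0.00238), E2f2 (1.14, limma adjusted p = 0.00932) and E2f8 (1.37, limma adjusted p = 0.0162) were called higher under it. So were 77.9% of all genes.

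**Figure D4:**
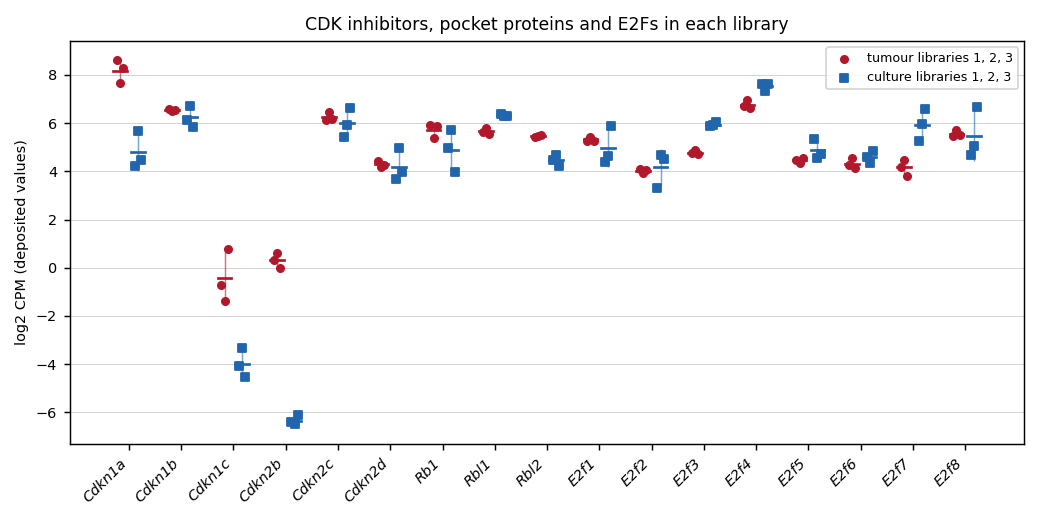
Deposited log2 CPM (y axis) of 6 CDK inhibitors, 3 pocket proteins and 8 E2Fs (x axis) in the 3 tumour libraries (red circles) and the 3 culture libraries (blue squares), with the group mean as a bar and 1 SD as a line. Cdkn1a, Cdkn1c, Cdkn2b and Rbl2 lie higher in tumour libraries with no overlap, and Rbl1, E2f3, E2f4 and E2f7 lie lower.

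Of the 14 transcriptional cyclins and CDKs, which act on RNA polymerase II, 2 rose and 3 fell, with a median log2 change of -0.18. The shares over all genes were 29.5% higher and 18.8% lower. Those that rose were the L-type cyclins, which partner CDK11 and act in splicing. Ccnl1 stood at 8.48, 7.505 and 8.37 log2 CPM in tumour libraries 1, 2 and 3, against 6.95, 5.88 and 6.54 in culture libraries 1, 2 and 3, with tumour library 2 the lowest of its group and a change of 1.66 (SE 0.34, limma adjusted p = 0.00514). Ccnl2 stood at 7.83, 7.23 and 7.89 log2 CPM in tumour libraries, against 6.44, 6.44 and 6.52 in culture libraries, with a change of 1.19 (SE 0.20, limma adjusted p = 0.00183). Both were called higher under the 4 other scalings. Tumour library 2, lowest of its group for both, also had the lowest neutrophil, macrophage, fibroblast and endothelial sums given above, and their part in these results was not tested. Across the 59 genes, all that fell but Ccnd2, Cdk8 and Ccnt1 were highest in library 2 among the tumour libraries. Of those that rose, Ccni, Cdk14 and Cdkn2b were also highest there.

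The genes that fell included members of the Mediator kinase module. Cdk8, its kinase, stood at 5.72, 5.66 and 5.62 log2 CPM in tumour libraries 1, 2 and 3, against 6.73, 6.66 and 6.62 in culture libraries 1, 2 and 3. The libraries of each group lay close together, with SDs of 0.05 in tumour libraries and 0.06 in culture libraries, and the change was -1.001 (SE 0.13, limma adjusted p = 0.000447), with 0.28 and no call when scaled to the epithelial median. Ccnc, cyclin C, the partner of CDK8, stood at 4.95, 5.05 and 4.89 log2 CPM in tumour libraries, against 5.31, 5.40 and 5.61 in culture libraries, with a change of -0.48 (SE 0.15, limma adjusted p = 0.036). Its call was lost without any 1 of the tumour libraries and without the variance trend, and it was called higher (0.80, limma adjusted p = 0.01) when scaled to the epithelial median. Cdk19, the paralogue of Cdk8, was not called, at 6.17, 5.96 and 6.08 log2 CPM in tumour libraries, against 5.50, 5.98 and 5.56 in culture libraries. Ccnt1, a cyclin of the elongation factor P-TEFb, stood at 4.85, 4.45 and 4.52 log2 CPM in tumour libraries, against 5.51, 5.20 and 5.06 in culture libraries. It fell, at -0.65 (SE 0.19, limma adjusted p = 0.0255), but was not called without tumour library 2 or 3 or culture library 1, nor when scaled to the summed epithelial CPM, and had 0.63 under the epithelial median. Its kinase Cdk9 and the related cyclin Ccnt2 had changes of 0.18 and -0.09 and were not called. The genes of the CDK-activating kinase, Cdk7 and Ccnh, had -0.24 and -0.42, and the elongation kinases Cdk12 and Cdk13 with their cyclin Ccnk had -0.19, 0.05 and -0.18, none of them called. Cdk10 was not called either (-0.24). Ccnh was called lower after median centring (-0.64, limma adjusted p = 0.0147) and quantile normalization (-0.61, limma adjusted p = 0.0148). Quantile normalization also called Cdk10 lower (-0.49, limma adjusted p = 0.045). Scaled to the epithelial median, 12 of the 14 were called higher and 0 lower. Without culture library 2, Cdk12 was called lower (-0.48, limma adjusted p = 0.0283) and Cdk19 higher (0.54, limma adjusted p = 0.0227).

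Of the 12 atypical cyclins and CDKs, 5 rose and 0 fell, with a median log2 change of 0.34, beside 29.5% higher and 18.8% lower over all genes. Ccng2, cyclin G2, known for its rise in cells that leave the cycle, stood at 7.31, 7.07 and 7.10 log2 CPM in tumour libraries 1, 2 and 3, against 4.56, 6.68 and 4.43 in culture libraries 1, 2 and 3. Culture library 2 lay near the tumour libraries and the other culture libraries far below, with a change of 1.94 (SE 0.55, limma adjusted p = 0.0208). The call was lost without any 1 of the tumour libraries (adjusted p from 0.0557 to 0.0612) and without culture library 1 (0.0737), and the change was 2.67 without culture library 2. Ccng1, cyclin G1, a target of p53, stood at 6.42, 6.43 and 6.49 log2 CPM in tumour libraries, against 5.56, 5.20 and 6.004 in culture libraries, with 0.85 (SE 0.21, limma adjusted p = 0.0119), and its call was lost without tumour library 3. Ccni, cyclin I, stood at 7.49, 7.52 and 7.43 log2 CPM in tumour libraries, against 6.77, 6.08 and 6.47 in culture libraries, with 1.04 (SE 0.19, limma adjusted p = 0.00286). Ccno, cyclin O, known for its role in multiciliated cells, stood at 3.29, 1.57 and 2.68 log2 CPM in tumour libraries, against -1.89, -0.89 and -0.34 in culture libraries, with 3.55 (SE 0.56, limma adjusted p = 0.00139). Tumour library 2 was again the lowest of its group. Ccno was not called after quantile normalization (1.54, limma adjusted p = 0.0552). It had 359, 120 and 242 reads in tumour libraries, against 11, 24 and 27 in culture libraries. Its culture reads alone barely passed the table's minimum of 61. With genes kept at an overall mean of at least 1 log2 CPM, Ccno was left out, as were Cdkn1c and Cdkn2b. Cdk14, a kinase that acts with cyclin Y, stood at 5.98, 6.09 and 5.93 log2 CPM in tumour libraries, against 5.52, 5.02 and 5.24 in culture libraries, with 0.74 (SE 0.17, limma adjusted p = 0.00914). The other 7, Ccnj, Ccny, Cdk5, Cdk16, Cdk17, Cdk18 and Cdk20, had changes from -0.36 for Ccnj to 0.34 for Ccny and were not called. Without culture library 3, Ccny (0.44, limma adjusted p = 0.018) and Cdk5 (0.37, limma adjusted p = 0.0465) were called higher.

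The log2 ratio of a pair of related genes within a library does not change when a library is multiplied by 1 factor, as in every scaling here but quantile normalization. The 12 pairs given were chosen after the values were seen, so the ratios, on the deposited values, have no test, and the count of 9 pairs whose groups did not overlap was shaped by that choice. The ratio Rbl2/Rbl1 was -0.21, -0.34 and -0.06 in tumour libraries, against -1.93, -1.61 and -2.07 in culture libraries. The ratio E2f7/E2f8 was -1.29, -1.25 and -1.69 in tumour libraries, against 0.56, 0.89 and -0.08 in culture libraries, and E2f3/E2f1 was -0.51, -0.57 and -0.55 in tumour libraries, against 1.47, 1.26 and 0.17 in culture libraries. All tumour libraries were thus lower than culture libraries for these E2F pairs and higher for the pocket proteins. The ratio Cdkn1a/Cdkn1b was 2.01, 1.15 and 1.72 in tumour libraries, against -1.92, -1.04 and -1.38 in culture libraries, with the sign opposite between the groups. For Cdk8/Cdk19 it was -0.46, -0.30 and -0.45 in tumour libraries, against 1.24, 0.68 and 1.05 in culture libraries, also opposite in sign. The ratio Ccnb1/Ccnb2 was -1.16, -1.08 and -1.17 in tumour libraries, against -0.76, 0.25 and 0.03 in culture libraries, Ccne2/Ccne1 was -1.06, -0.87 and -0.90 in tumour libraries, against -0.12, -0.07 and 0.29 in culture libraries, and Ccnd2/Ccnd1 was -2.79, -3.20 and -3.37 in tumour libraries, against -1.06, -1.49 and -2.63 in culture libraries. These 3 ratios were lower in every tumour library. Ccnt1/Ccnt2 differed less, by a mean of -0.57. The groups overlapped for Cdk6/Cdk4, Cdk12/Cdk13 and Ccnl1/Ccnl2.

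**Figure D5:**
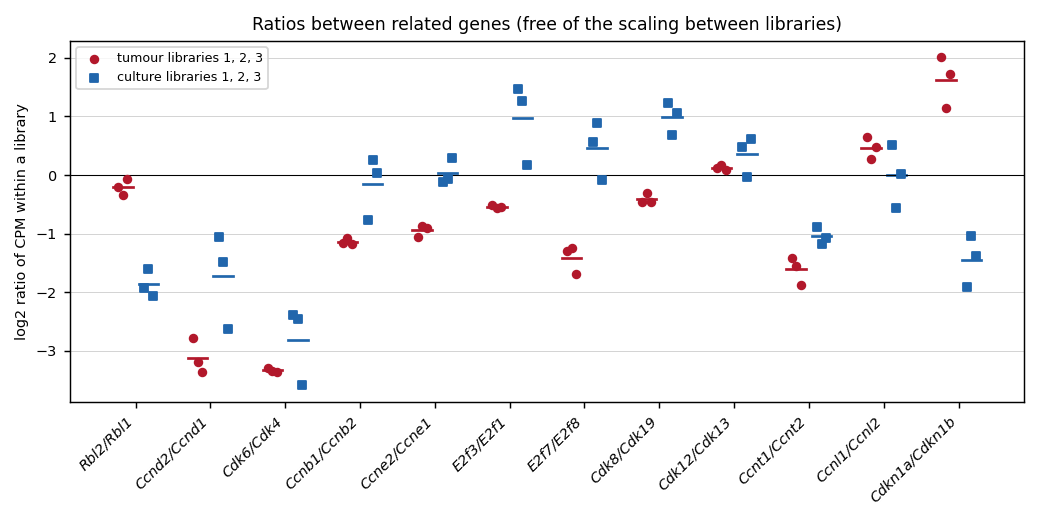
Log2 ratio of CPM within a library (y axis) for 12 pairs of related genes (x axis) in the 3 tumour libraries (red circles) and the 3 culture libraries (blue squares), with the group mean as a bar. Ratios in tumour libraries are higher for Rbl2/Rbl1 and Cdkn1a/Cdkn1b and lower for 7 other pairs, and the groups overlap for Cdk6/Cdk4, Cdk12/Cdk13 and Ccnl1/Ccnl2.

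The libraries of a group differed among themselves more in culture than in the tumour. The median SD of the 59 genes was 0.12 in tumour libraries and 0.35 in culture libraries on the log2 scale, against 0.16 and 0.36 for all genes, so the wider culture spread was not particular to these families. The widest culture SDs were those of Ccng2 (1.26), Ccne2 (1.21), Ccnf (1.11), E2f8 (1.06) and Ccne1 (1.04). Culture library 3 was the highest and library 1 the lowest of the culture libraries for 20 of the 59, or 33.9%, and for 16.8% of all genes, a count made after the values were seen. Among the 20 were Ccne1, Ccne2, Ccna2, Ccnb1, Cdk1 and E2f1. The opposite order held for 7 of the 59 and for 2368 of all 13912 genes. The median of 22 E2F targets of DNA replication was likewise 7.79 log2 CPM in culture library 3, against 6.81 and 6.84 in culture libraries 1 and 2. Without culture library 3, 16 of the 59 rose and 15 fell.

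The pathway was followed in 6 further lists, which hold no member of the 59 except Ccng1. Of 25 kinases, phosphatases and adaptors of CDKs, 1 rose and 9 fell, with a median log2 change of -0.53. Fbxo5, which encodes the inhibitor EMI1 of the anaphase-promoting complex, had -1.49 (SE 0.29, limma adjusted p = 0.00402), Cdc25b, a phosphatase that activates CDK1, -1.24 (SE 0.16, limma adjusted p = 0.000466), and Skp2, which targets p27 for degradation, -1.23 (SE 0.35, limma adjusted p = 0.0207). The gene that rose, named after its values were seen, was Cdk5r1, the p35 activator of CDK5, with 1.74 (SE 0.37, limma adjusted p = 0.00595). Of 10 E2F partners and MuvB genes, 6 fell, among them Mybl2 with -1.49, Foxm1 with -1.01 and Tfdp1 with -0.92, and 1 rose, Lin37 with 0.70, also named after its values were seen. Of 22 E2F targets of DNA replication, 8 fell and 0 rose, with a median of -0.90, led by Pole with -1.72, Mcm10 with -1.62 and Pola1 with -1.16. Of 18 mitotic genes, 17 fell and 0 rose, with a median of -1.31, led by Aurka with -1.95, Kif11 with -1.86 and Hmmr with -1.78. Scaled to the epithelial median, the mitotic list had 0 higher and 2 lower with a median of -0.03, and the replication list had 3 higher and 0 lower with a median of 0.38. Under that scaling 77.9% of all genes were called higher and 1.06% lower, with an all-gene median of 1.36.

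Of 13 further genes of P-TEFb and the Mediator kinase module, a list without Cdk8, Ccnc and Ccnt1, which fell, 3 were called higher and 0 lower. Hexim1, an inhibitor of P-TEFb, had 1.33 (SE 0.37, limma adjusted p = 0.0203) and Ell2, an elongation factor, had 0.98 (SE 0.25, limma adjusted p = 0.0134). The third, Med12l, named after its values were seen, had 3.76 at a mean of 1.35 log2 CPM in tumour libraries and -2.40 in culture libraries. With 339 tumour and 28 culture reads it is in the table only with tumour reads, so its direction was fixed. Of 11 genes of the p53 pathway, 3 rose, 1 fell and 7 were not called. Btg2, an antiproliferative p53 target and early response gene, had 5.52 (SE 0.57, limma adjusted p = 0.000129), Gadd45b had 1.29 (SE 0.44, limma adjusted p = 0.0444), and Ccng1 was described above. Zmat3, another p53 target, fell with -1.11 (SE 0.17, limma adjusted p = 0.0013). These lists were written with earlier results of these data known and are described by their counts, beside 29.5% higher and 18.8% lower over all genes.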

How the data were processed

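RNA-seq values of 3 tumour and 3 culture libraries were analysed. The submitters' processing notes name HISAT, HTSeq, limma and mm10, without versions, and the strand setting is not given in the sources used here. The authors deposited log2 CPM values in the voom form of limma, with 0.5 reads added and library totals scaled by trimmed means. Solving for that form gave whole reads, within 0.01, for 100% of values, and 35448588 to 41469090 reads per library. Every gene in the table has at least 61 reads in all.

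The test was limma (3.58.1, R 4.3.3) with a variance trend on these log2 values, two-sided, with Benjamini-Hochberg adjustment over 13912 genes and a threshold of 0.05. It was tested on simulated data first. A change is tumour minus culture on the log2 scale, SEs are moderated, and the 95% interval of a change is per gene. Count models were not run because the deposited unit is log2. Libraries were numbered in accession order. Alternatives were other scalings, filters at 1 log2 CPM, log2(CPM + 1), voom and library weights, no variance trend, and leaving out each library. Exon lengths and coordinates came from GENCODE M21 (GRCm38, the assembly of mm10), in which all 59 symbols were found, and promoters from RefSeq (GRCm38.p6). Intervals of read ratios and the floor of 3 reads cover counting error only. Any of the 59 genes could be named, and of each pathway list up to 3 called genes with the largest change and a higher group mean of at least 4 log2 CPM. Members and lists were chosen with earlier results of these data known.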

Additional observations from a re-analysis of the deposited data

How the results depend on the processing

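No paired analysis was possible because the labels carry no replicate number that the groups share. Of the 25 called genes, 25 kept their call and direction with median centring, with log2(CPM + 1), with voom weights and with library weights, 24 without the variance trend, 23 after quantile normalization, 22 with scaling to summed epithelial CPM (chosen after seeing the data) and 11 with scaling to the epithelial median, and 17 kept it whichever library was left out. Scaled to the epithelial median, 10832 genes rose and 148 fell over all genes, and 44 and 0 among the 59. Quantile normalization gave 5513 lower genes, 23 of them among the 59, and an overall mean of at least 1 log2 CPM gave 2246 higher genes. Leaving out 1 library at a time gave 3301 to 4625 higher and 1520 to 3301 lower over all genes, and 9 to 16 higher and 8 to 17 lower among the 59. The sign of the log2 change turned, with the new value given, for Ccnd1 0.87, Ccnd3 1.18, Ccne1 0.80, Cdk4 1.08, Cdk6 0.56, Ccna2 0.11, Ccnb2 0.72, Ccnf 0.87, Cdk1 0.23, Ccnc 0.80, Ccnh 0.86, Ccnk 1.10, Ccnt1 0.63, Ccnt2 1.20, Cdk10 1.04, Cdk12 1.10, Cdk7 1.04, Cdk8 0.28, Ccnj 0.92, Cdk16 1.23, Cdk17 1.23, Cdkn2aip 0.83, Cdkn2aipnl 0.12, Cdkn3 0.50, E2f2 1.14, E2f3 0.12, E2f4 0.51, E2f5 0.86, E2f6 1.02 and Rbl1 0.61 with scaling to the epithelial median. With scaling to summed epithelial CPM it turned for Ccnd3 0.055, Ccnt2 0.074, Cdk16 0.11, Cdk17 0.11 and E2f2 0.017, with median centring for Cdk2 -0.12, Cdk13 -0.18, Cdk9 -0.044, Cdk18 -0.20, Cdkn2d -0.13 and E2f8 -0.13, with quantile normalization for Cdk18 -0.087, Cdk20 -0.51, Cdkn1c -0.74 and Cdkn2d -0.30, and with library weights for Ccnf 0.19 and E2f2 0.21. Over the left-out libraries the sign turned within the ranges of Ccnd3 -0.33 to 0.055, Cdk2 -0.23 to 0.43, Cdk4 -0.33 to 0.042, Ccnf -1.03 to 0.064, Ccnt2 -0.18 to 0.026, Cdk13 -0.057 to 0.12, Cdk16 -0.16 to 0.066, Cdk17 -0.25 to 0.10, Cdk18 -0.040 to 0.10, Cdkn2c -0.045 to 0.56, Cdkn2d -0.17 to 0.48, E2f2 -0.57 to 0.11 and E2f8 -0.31 to 0.70. Median centring and the epithelial scalings subtract 1 value from the change of every gene. That value was 0.22 for median centring, -1.28 for the epithelial median and -0.16 for the summed epithelial CPM. Turns under these scalings therefore reflect a shift common to all genes. The cause of the other turns was not tested. Genes of few reads, such as Cdkn1c and Cdkn2b, are limited by depth.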
